A study of Homo sapiens with 4 samples.

Results

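The 10 genes described here encode MYC, its partner MAX, the MAX-binding antagonists MXD1, MXD3, MXD4, MXI1 and MNT, the sugar-responsive factor MLXIP (also called MondoA), and the alpha-arrestins TXNIP and ARRDC4. They lie on 10 different chromosomes and were taken by gene symbol from the 58735 genes of the deposited tables, where each of the 10 symbols named 1 gene. RNA sequencing was performed on the human glioblastoma (GBM) cell lines U251 and U87, each as a Control culture and after Bru, a plant-derived quassinoid also known as brusatol, given at its IC50 for 48 h. This gave 4 groups, U251 Control, U251 Bru, U87 Control and U87 Bru, with 1 library in each. In other assays of the study the Control cells received DMSO alone, the solvent of Bru, and for the sequenced cultures the vehicle is not stated. Both lines are established tumour lines grown in serum rather than tissue. With 1 library per group there was no replicate error and no test between conditions, so each ratio below compares 2 libraries, and its 95% interval covers counting error alone.

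MYC is a transcription factor of the basic helix-loop-helix leucine zipper family that binds DNA as a dimer with MAX and is known for driving ribosome, nucleotide and cell cycle genes in many tumours, gliomas among them. The MXD proteins, MXI1 and MNT compete for the same partner and recruit the SIN3 corepressor, so MYC-MAX and MXD-MAX dimers meet at the same DNA motif, the E-box. A parallel branch uses MLX in place of MAX: MLXIP and its paralog MLXIPL (ChREBP) bind MLX and respond to glucose phosphates, and TXNIP and ARRDC4 are their best-known targets. TXNIP binds thioredoxin and restrains glucose uptake, and ARRDC4 is a related arrestin with a like effect on glucose transport.

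Since both branches act through E-boxes, the upstream sequences were read for 2 motifs. RefSeq promoters (GRCh38.p14) were on hand for 9 of the 10 genes, with 13 transcript starts in all. The E-box CACGTG, which reads the same on both strands, stood within 250 bases upstream of 3 of these 13 starts, against 6.34% of the 35116 promoters of the whole reference. It lay at -238 to -233 of MXD4, at -193 to -188 of MNT and at -210 to -205 of ARRDC4, counted from the transcript start. The second motif was a pair of boxes with 5 bases between them, the arrangement known as a carbohydrate response element. With a difference from CACGTG allowed at 1 base of 1 of the boxes, 0 of the 13 held it, and 0.0541% of all promoters did. With 1 differing base allowed in each box, a form added after the sequences were seen, 1 of the 13 held it, the upstream start of TXNIP, against 0.339% of all promoters. A match is a string of letters in this window and not a measured binding site.

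The 2 promoters below are shown because TXNIP and ARRDC4 carried the largest ratios of the set. The first is chr1:145996580-145996829 on the minus strand, and capitals mark the paired boxes at -88 to -72. The second is chr15:97960453-97960702 on the plus strand, and capitals mark its E-box. Both are written 5′ to 3′ and end at the base before the transcript start.
TXNIP: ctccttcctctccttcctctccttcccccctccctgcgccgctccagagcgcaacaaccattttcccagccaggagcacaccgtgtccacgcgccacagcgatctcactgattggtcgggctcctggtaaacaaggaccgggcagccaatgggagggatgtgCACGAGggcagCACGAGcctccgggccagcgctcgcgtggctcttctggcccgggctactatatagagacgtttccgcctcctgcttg
ARRDC4: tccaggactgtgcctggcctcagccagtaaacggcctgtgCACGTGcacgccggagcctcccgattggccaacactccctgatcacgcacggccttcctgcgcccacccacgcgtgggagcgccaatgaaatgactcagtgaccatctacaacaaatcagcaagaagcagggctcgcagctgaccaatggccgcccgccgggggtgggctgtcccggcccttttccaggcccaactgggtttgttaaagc

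The deposited unit is FPKM, fragments scaled to gene length and a library size. The fragments behind each value (called reads here) were recovered from FPKM and gene length. The library size inside the FPKM is not the sum of these reads. It was 20974002 against a sum of 21453561 in U251 Control, and 18533374 against 17847910 in U251 Bru. Ratios of FPKM are therefore not ratios of read shares. The libraries held 17083896 to 21453561 reads on genes, and 3 reads on a gene of 1 kilobase correspond to an FPKM of 0.143 to 0.172. Among markers expected of glioma lines, VIM and CD44 were high in all 4 libraries, at 606 to 701 and 94.5 to 125 FPKM. NES and SOX2 were at 50.6 to 125 and 91.2 to 129 FPKM in U251, while in U87 SOX2 had 0 and 2 reads and NES was at 0.569 to 1.46 FPKM. GFAP lay between 0.147 and 2.42 FPKM, OLIG2 had 2, 4, 38 and 61 reads, and S100B had 9 reads in U251 Control and 0 elsewhere, so these glial markers were low or absent. Markers of other cells (PTPRC, PECAM1, EPCAM and RBFOX3) summed to 0.0570 to 0.857 FPKM, with EPCAM at 15 and 14 reads and PECAM1 at 70 and 24 reads in the U87 libraries. Their part in the results was not tested.

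MYC had the highest level of the 10 genes in every library, since FPKM is per length and allows genes to be ordered. In U251 Control the order was MYC (57.9 FPKM), MXD3 (12.6), MAX (7.94), MXI1 (5.83), MNT (5.72), MXD4 (4.85), MLXIP (4.28), TXNIP (3.43), MXD1 (2.83) and ARRDC4 (0.141), with MXI1 and MNT within counting error of each other. After Bru in U251, TXNIP moved from the eighth to the second place at 20.4 FPKM, MXD3 lay with MLXIP and MNT at 4.41 to 4.53 FPKM, and ARRDC4 remained last at 1.05 FPKM. The order in U87 Control was MYC (57.5 FPKM), MAX (13.9), MXD4 (8.16), MLXIP (7.30), MNT (6.92), MXD3 (4.87), TXNIP (4.15), MXI1 (3.88), ARRDC4 (3.68) and MXD1 (2.88). TXNIP, MXI1 and ARRDC4 were not separable there, nor were MLXIP and MNT. After Bru in U87, the levels from MXD3 (4.63 FPKM) down through MXI1, TXNIP and ARRDC4 to MXD1 (3.47 FPKM) each lay within counting error of the next.

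**Figure D1:**
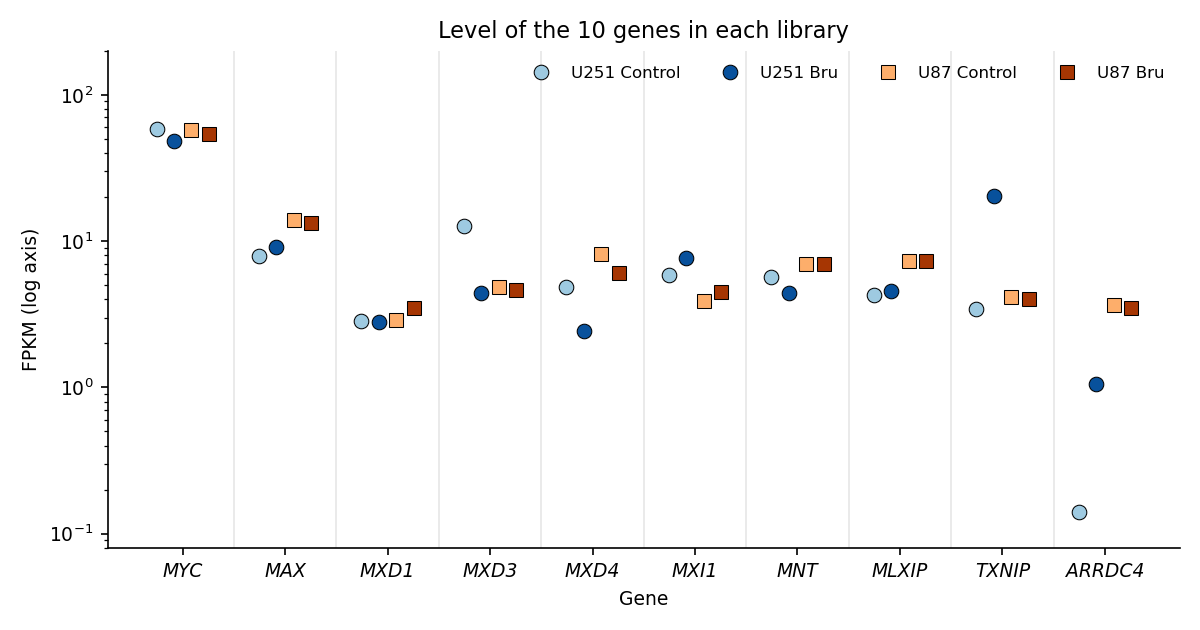
FPKM (log axis) of the 10 genes, 1 point per library: circles for U251, squares for U87, light for Control and dark for Bru. MYC sits between 48.3 and 57.9 FPKM throughout, whereas TXNIP stands at 20.4 FPKM in U251 Bru and between 3.43 and 4.15 FPKM in the other libraries, and ARRDC4 ranges from 0.141 to 3.68 FPKM.

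TXNIP (ENSG00000265972, chr1:145992435-145996600, minus strand, GRCh38) was higher after Bru in U251 and not in U87. U251 Control held 3.43 FPKM (261 reads) and U251 Bru 20.4 FPKM (1370 reads), whereas U87 Control held 4.15 FPKM (272 reads) and U87 Bru 3.99 FPKM (252 reads). The U251 Bru library thus stood alone, with the other 3 close together. The ratio in U251 was 5.94-fold (95% interval 5.20 to 6.81), a log2 ratio of 2.54 on the FPKM + 0.1 scale that ranked as number 40 from the top among the 12949 expressed genes, those whose FPKM averaged 1 or more over the libraries. In U87 the log2 ratio was -0.05, with an interval of -0.31 to 0.20. In these bulk libraries, more RNA per cell and more cells that make it cannot be told apart.

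ARRDC4 (ENSG00000140450, chr15:97960698-97973838, plus strand) differed in the same direction from a much lower Control level. U251 Control had 12 reads (0.141 FPKM), U251 Bru 79 reads (1.05 FPKM), U87 Control 271 reads (3.68 FPKM) and U87 Bru 249 reads (3.51 FPKM). The untreated lines were therefore far apart, 26.2-fold (14.8 to 51.4) higher in U87, and U251 after Bru was still under both U87 libraries. In U251 the ratio was 7.45-fold (4.04 to 15.0), the wide interval coming with the 12 reads of the Control library. The log2 ratio with the pseudocount of 0.1 was 2.25, number 50 from the top, and with a pseudocount of 1 it was 0.84, below 2-fold. In U87 it was -0.07 (interval -0.32 to 0.19). ARRDC4 reached the mean FPKM of 1 through the U87 libraries, at a mean of 2.10. FPKM of TXNIP exceeded that of ARRDC4 by 24.4 and 19.5 times in U251 Control and Bru, and by 1.13 and 1.14 times in U87.

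MYC mRNA was nearly equal in the untreated lines and slightly lower after Bru. It stood at 57.9 FPKM (3646 reads) in U251 Control and 48.3 FPKM (2687 reads) in U251 Bru, and at 57.5 FPKM (3120 reads) and 54.3 FPKM (2836 reads) in U87 Control and Bru. The log2 ratio was -0.26 (interval -0.33 to -0.19) in U251 and -0.08 (-0.16 to -0.01) in U87. Other scalings and pseudocounts gave -0.27 to -0.17 for the first line and -0.09 to -0.03 for the second. The median over all genes was -0.03 in U251 and -0.04 in U87. With ratios centred on that median, MYC had -0.23 and -0.04, so little of a difference was left in U87. Untreated U87 against untreated U251 gave -0.01 (-0.08 to 0.06). The files measure RNA, and the MYC protein was not analysed here.

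MAX, the shared partner, was at 7.94 FPKM (738 reads) and 9.13 FPKM (750 reads) in U251 Control and Bru, and at 13.9 FPKM (1109 reads) and 13.3 FPKM (1028 reads) in the U87 pair. The lines differed more than the treatment did, with untreated U87 1.74-fold (1.59 to 1.92) above untreated U251. The log2 ratio after Bru was 0.20 (0.05 to 0.35) in U251 and -0.06 (-0.18 to 0.07) in U87. The FPKM of MYC was 7.29 times that of MAX in U251 Control and 5.29 times in U251 Bru, against 4.15 and 4.07 times in U87.

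Of the antagonists, MXD3 (ENSG00000213347, chr5:177301461-177312757, minus strand) showed the largest ratio. The U251 Control library had 12.6 FPKM (1365 reads), the U251 Bru library 4.41 FPKM (421 reads), the U87 Control library 4.87 FPKM (454 reads) and the U87 Bru library 4.63 FPKM (415 reads). U251 Control was the library that stood apart, and U251 Bru lay near the level of both U87 libraries. The U251 ratio was 0.349 of Control (0.312 to 0.390), with a log2 ratio of -1.50 that ranked as number 246 from the bottom. In U87 the log2 ratio was -0.07 (-0.27 to 0.12). MXD3 overlaps PRELID1 on the opposite strand and RAB24 on the same strand, and 36.2% of the 50-base stretches of its annotated transcripts also occur in transcripts of other genes, chiefly these 2 and PRELID1 pseudogenes. Whether counting used the strand is not given in the sources used here, so part of the MXD3 reads is uncertain. The log2 ratios in U251 and U87 were 0.04 and -0.02 for PRELID1, and -0.39 and -0.17 for RAB24.

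MXD4 was lower after Bru in both lines. It had 4.85 FPKM (718 reads) in U251 Control and 2.42 FPKM (317 reads) in U251 Bru, then 8.16 FPKM (1041 reads) and 6.05 FPKM (743 reads) in U87 Control and Bru. Apart from MYC, whose U87 interval ended at -0.01 and depends on the scaling, MXD4 was the gene with intervals below 0 in both lines. In U87 its log2 ratio was -0.43 (-0.57 to -0.30), number 1133 from the bottom. In U251 the ratio was 0.4996 of Control (0.436 to 0.571), with a log2 ratio of -0.97 on the FPKM + 0.1 scale, just short of 2-fold on that scale.

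MXI1 (MXD2) went the other way. Its FPKM was 5.83 (563 reads) and 7.62 (651 reads) in U251 Control and Bru, and 3.88 (323 reads) and 4.48 (359 reads) in U87 Control and Bru. Its log2 ratio was 0.38 (0.22 to 0.55) in U251, against 0.20 (-0.01 to 0.43) in U87, so the intervals overlapped. MNT, the broadly expressed member of the antagonists, had 5.72 FPKM (1047 reads), 4.41 FPKM (713 reads), 6.92 FPKM (1091 reads) and 7.004 FPKM (1064 reads) in the order U251 Control, U251 Bru, U87 Control and U87 Bru. It was lower after Bru in U251, at a log2 ratio of -0.37 (-0.52 to -0.24), with 0.02 (-0.11 to 0.14) in U87. Of the MNT stretches, 13.0% also occur in other genes.

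MXD1, known for its rise when cells differentiate, was among the lowest of the set, with 2.83 FPKM (377 reads) and 2.80 FPKM (330 reads) in U251 Control and Bru and 2.88 FPKM (331 reads) and 3.47 FPKM (384 reads) in the U87 pair. Only U87 Bru stood somewhat higher. Its log2 ratio was -0.01 (-0.23 to 0.20) in U251 and 0.26 (0.05 to 0.48) in U87, the highest ratio of the 10 genes in U87. MXD1 overlaps SNRNP27 on the same strand, whose log2 ratios were 0.48 (U251) and 0.04 (U87).

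Summed over the 5 antagonists, the FPKM was 31.9 and 21.7 in U251 Control and Bru and 26.7 and 25.6 in the U87 pair. The sum was highest in U251 Control, where MXD3 made up 39.6% of it, against 20.3% after Bru and 18.2% and 18.1% in U87. MXI1 took 18.3% of the sum in U251 Control and 35.2% in U251 Bru. The FPKM of MYC over this sum was 1.82, 2.23, 2.15 and 2.12 in the same order of libraries. The higher ratio after Bru in U251 rested on MXD3, whose reads are partly uncertain. Without MXD3, a sum chosen after the values were seen, the antagonists came to 19.2 and 17.3 FPKM in U251 Control and Bru, and MYC over them was 3.01 and 2.80, lower after Bru.

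MLXIP, the partner of MLX at the TXNIP promoter, hardly differed after Bru. Its FPKM was 4.28 (1249 reads) in U251 Control and 4.53 (1168 reads) with Bru, while the U87 values were 7.30 (1835 reads) and 7.25 (1755 reads). The log2 ratios of 0.08 (-0.03 to 0.20) and -0.01 (-0.11 to 0.08) had intervals that hold 0, while untreated U87 was 1.71-fold (1.59 to 1.83) above untreated U251. Of 5 other network proteins, MLX and MGA were expressed and 0 passed 2-fold in either line. Past 2-fold, 3.36% of all genes were higher and 5.44% lower in U251, and 1.92% and 1.41% in U87. MLX was at 19.1 FPKM in both U251 libraries and at 16.4 and 15.2 FPKM in U87 Control and Bru. MLXIPL was close to absent in U251 (3 and 2 reads) and present in U87 at 2.02 and 1.53 FPKM (176 and 128 reads). MGA, a large MAX-binding protein of a repressive complex, was at 2.51 and 4.03 FPKM in U251 Control and Bru, a log2 ratio of 0.66 beside 0.05 for the other line. MYCN had 0 reads in all 4 libraries and MYCL had 5, 6, 1 and 1 reads, so nearly all reads of the MYC family lay on MYC.

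Counted over the 10 genes in U251, 2 were higher past 2-fold (TXNIP and ARRDC4) and 1 was lower (MXD3), where the share over all 12949 genes was 3.36% higher and 5.44% lower. ARRDC4 is in this count through its U87 level, and with a pseudocount of 1 or a minimum mean FPKM of 5 the members past 2-fold in U251 were 2 instead of 3, TXNIP and MXD3. Past 1.5-fold, 2 were higher and 2 lower, the latter with MXD4, against 11.3% and 15.6% of all genes. In U87, 0 of the 10 passed 2-fold or 1.5-fold in either direction. The shares over all genes there were 1.92% higher and 1.41% lower past 2-fold, and 4.56% higher and 4.49% lower past 1.5-fold. The median absolute log2 ratio of the 10 genes was 0.38 in U251, near the 0.34 of all genes, and 0.07 in U87, under the 0.17 of all genes. All genes here include noncoding ones. Of the 10851 protein-coding genes, 700 in U251 and 96 in U87 were past 2-fold, against 1140 and 432 of the 12949. The median absolute ratio of protein-coding genes alone was not computed. Between the untreated lines, ARRDC4 was higher and MXD3 lower in U87 past 2-fold, against 14.5% and 16% of all genes. With so few members these shares describe the set and do not set it apart from other genes.

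**Figure D2:**
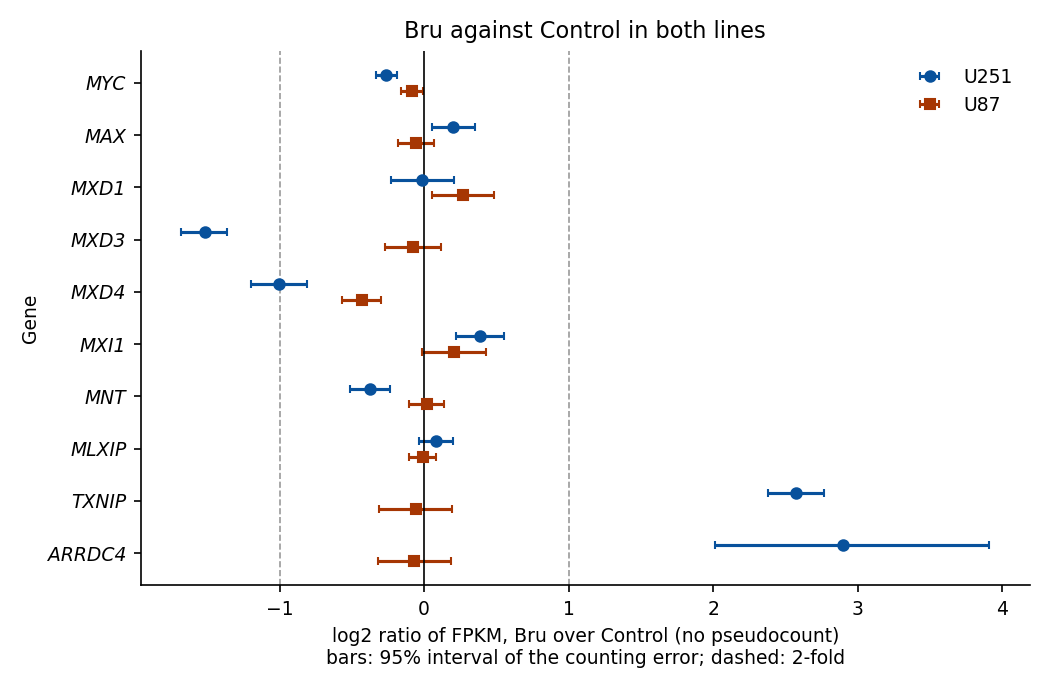
Log2 ratio of FPKM, Bru over Control and without a pseudocount, of the 10 genes in U251 (circles) and U87 (squares); bars are 95% intervals of the counting error and dashed lines mark 2-fold. TXNIP and ARRDC4 lie above 2-fold in U251 and at 0 in U87, MXD3 lies past 2-fold lower in U251 and near 0 in U87, and MXD4 lies on the lower 2-fold line in U251 (0.4996 of Control, on this scale without a pseudocount) and below 0 in U87.

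The difference between the lines, as the log2 ratio in U251 minus that in U87 without a pseudocount, was 2.63 (2.31 to 2.95) for TXNIP and 2.97 (2.03 to 4.01) for ARRDC4. It was -1.44 (-1.70 to -1.19) for MXD3, -0.57 (-0.81 to -0.33) for MXD4, -0.39 (-0.58 to -0.21) for MNT and -0.18 (-0.28 to -0.07) for MYC. With MAX at 0.26 (0.06 to 0.45), the interval lay above 0 for 3 genes and below 0 for 4. It held 0 for MXD1, MXI1 and MLXIP. These intervals hold the counting error of 4 libraries and no spread between cultures, and the concentration of Bru used for each sequenced line is not given in the sources used here.

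**Figure D3:**
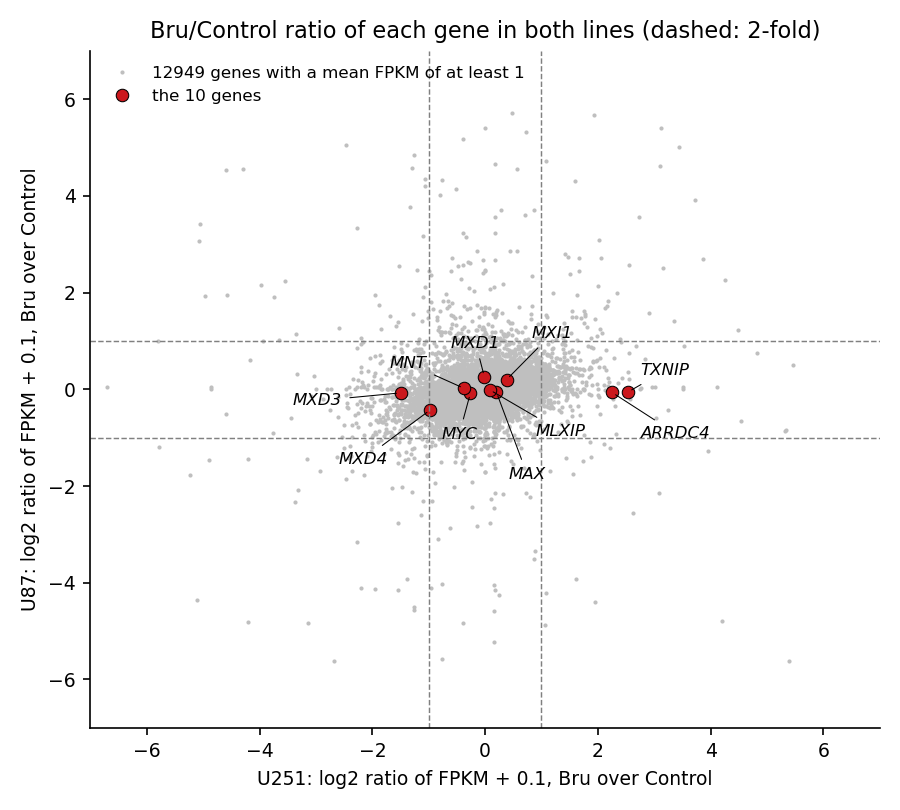
Log2 ratio of FPKM + 0.1, Bru over Control, of 12949 genes in U251 (horizontal) and U87 (vertical), with the 10 genes in red and dashed lines at 2-fold. The 10 genes spread from -1.50 to 2.54 along the U251 axis and from -0.43 to 0.26 along the U87 axis.

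Genes around the network were read from 9 lists. Among 8 further alpha-arrestins and thioredoxin genes, 7 were expressed, of which 6 were higher and 1 lower in each line. Over all genes, 47.2% were higher in U251 and 42.3% in U87. In U251, 1 gene of the list was higher past 2-fold, where 3.36% of all genes were. That gene was ARRDC3, another arrestin of the TXNIP family, at 6.85 and 14.1 FPKM in U251 Control and Bru (log2 ratio 1.03) and 8.59 and 8.71 FPKM in U87 (0.02). The median log2 ratio of the list was 0.30 in U251 and 0.19 in U87, beside -0.03 and -0.04 over all genes.

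Of 9 genes known as Mondo and MLX targets or as carbohydrate-response genes, 5 were expressed. In U251, 1 was higher and 4 were lower, 2 of them past 2-fold, where 5.44% of all genes were lower past 2-fold. KLF10, a transcription factor, was the 1 expressed gene of the list that was higher in U251. It had 13.5 and 23.4 FPKM in U251 Control and Bru, a log2 ratio of 0.78. In U87 its log2 ratio was 0.24 (interval 0.16 to 0.33), so unlike TXNIP it was higher there too. KLF10 is named after its values were seen. FASN, the fatty acid synthase, was at 99.9 and 35.1 FPKM in U251 Control and Bru (log2 ratio -1.50) and at 46.9 and 23.4 FPKM in U87 (-0.997). ACACA, which makes its malonyl-CoA substrate, had -1.02 in the first line and -0.62 in the second. Both are also known targets of SREBF1. In U87, 3 of the 5 were higher and 2 lower. The 2 lower ones, FASN and ACACA, were past 1.5-fold, where 4.49% of all genes were. Without a pseudocount FASN was at 0.4998 of Control in U87. Over all genes, 47.2% were higher and 52.1% lower in U251, and 42.3% and 56.7% in U87. The list's medians were -0.39 in U251 and 0.03 in U87, beside -0.03 and -0.04 over all genes.

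Of 8 glucose transporters, 5 were expressed and 0 passed 2-fold in either line. Over all genes, 3.36% were higher and 5.44% lower past 2-fold in U251, and 1.92% and 1.41% in U87. With 5 genes, a count of 0 does not set the list apart. SLC2A1 (GLUT1), whose surface level TXNIP is known to restrain, was at 92.9 and 53.6 FPKM in U251 Control and Bru (log2 ratio -0.79) and at 12.1 and 12.5 FPKM in U87 (0.04). SLC2A6, a lysosomal transporter, had 0.28 and -0.36. The medians were -0.16 and -0.12, beside -0.03 and -0.04 over all genes.

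Ratios in the corepressor and cofactor lists were small. All 9 SIN3 corepressor genes stayed within 1.5-fold in both lines, with 8 lower and 1 higher in U251 and 7 lower and 2 higher in U87. Over all genes, 52.1% were lower in U251 and 56.7% in U87. Past 1.5-fold, 11.3% of all genes were higher and 15.6% lower in U251, and 4.56% and 4.49% in U87. The medians of the SIN3 list were -0.23 and -0.08, beside -0.03 and -0.04 over all genes. SIN3A, the scaffold that the MXD proteins bind, had -0.46 in U251 and -0.19 in U87, and SAP18 had 0.49 and 0.18. All 13 MYC coactivators also stayed within 1.5-fold, with ZBTB17 (MIZ-1) at 0.43 and 0.50 and RUVBL2 at 0.58 and 0.17. Of 13 genes of MYC turnover, 0 passed 2-fold in either line. The shares of all genes past 2-fold were 3.36% higher and 5.44% lower in U251, and 1.92% and 1.41% in U87. SKP2, a ubiquitin ligase subunit that acts on MYC, had the largest ratio of the turnover genes at -0.96 and -0.40, and USP36, a nucleolar deubiquitinase of MYC, had 0.69 and 0.16.

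Of 25 genes that MYC is known to induce, 24 were expressed. In U251, 17 were higher and 7 lower, and in U87, 16 were higher and 7 lower. Over all genes, 47.2% were higher in U251 and 42.3% in U87. DNPH1 counts as expressed through U251 and had 0 reads in both U87 libraries, so it was neither higher nor lower there. The medians were 0.14 and 0.05, beside -0.03 and -0.04 over all genes. In U251, 1 gene was higher past 2-fold, where 3.36% of all genes were. That gene was ID2, an inhibitor of basic helix-loop-helix factors. It was at 15.0 and 50.6 FPKM in U251 (log2 ratio 1.75) and 26.4 and 26.6 FPKM in U87 (0.01). Of 13 genes that MYC is known to repress, 9 were expressed. In U251, 4 were higher and 5 lower, and in U87, 6 were higher and 3 lower. The list's medians were -0.31 and 0.43, beside -0.03 and -0.04 over all genes. The U251 median is the value of PDGFRB, which had 78 and 53 reads there (interval -0.91 to 0.14). CEBPA counts as expressed through U251, and its higher ratio in U87 rested on 0 and 1 reads. FTH1, the ferritin heavy chain, had log2 ratios of 1.49 and 0.77, and its reads are uncertain because it has many processed pseudogenes. The cell cycle inhibitor CDKN1A had -1.48 in U251 and 0.66 in U87, and the cyclin CCND1 had -1.59 and -0.11. THBS1 had -0.52 in U251, at 60.8 and 42.4 FPKM, and 1.13 in U87, where it rested on 28 and 78 reads. At 0.169 and 0.489 FPKM in U87, THBS1 counts as expressed through U251. The members named are targets of several other pathways too.

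**Figure D4:**
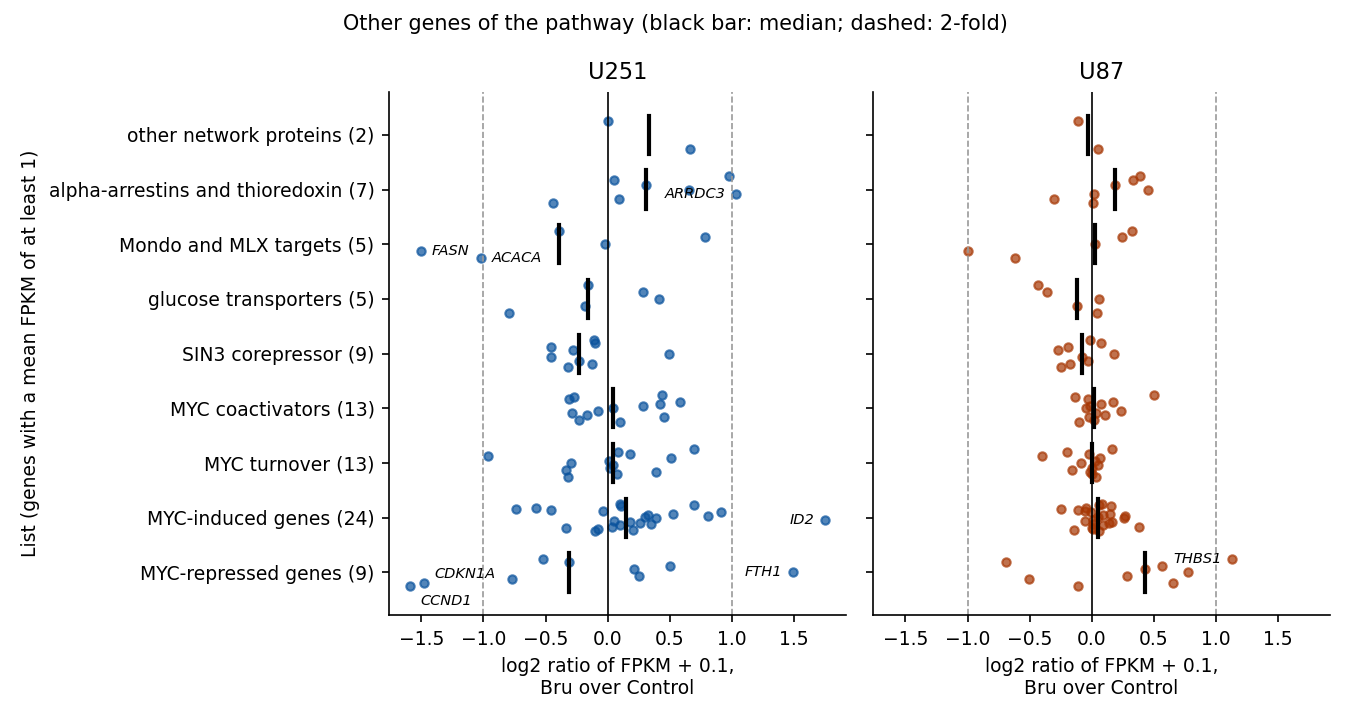
Log2 ratio of FPKM + 0.1, Bru over Control, of the genes of 9 lists, expressed ones only, in U251 (left) and U87 (right); each point is a gene, black bars are list medians, dashed lines mark 2-fold, and named points are past it. In U251 the named genes are ARRDC3, FASN, ACACA, ID2, FTH1, CDKN1A and CCND1, and in U87 the named gene is THBS1. THBS1 counts as expressed through U251 and was at 0.169 and 0.489 FPKM in U87 Control and Bru.

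The deposited tables assign 101 genes to the basic helix-loop-helix family, 8 of the members among them, and 43 of the 101 were expressed. This group and its named genes were chosen after their values were seen. In U251, HES7, ID2 and ID4 were higher past 2-fold, and MXD3, SREBF1 and SREBF2 were lower, 6.98% of the 43 in each direction beside 3.36% and 5.44% of all genes. In U87, HES1 was higher (2.33%) and 0 were lower, beside 1.92% and 1.41% of all genes. The median log2 ratio of the 43 genes was -0.01 in U251 and -0.07 in U87.

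The genes whose profile over the 4 libraries came nearest to that of TXNIP, by the Euclidean distance of centred log2(FPKM + 0.1) among 10851 protein-coding genes, were AC007325.4 (0.241), CIART (0.461), ZSCAN12 (0.489), COX19 (0.718) and ZNF404 (0.776). AC007325.4 was at 0.629 FPKM in U251 Control, 3.65 with Bru, and 0.593 and 0.663 in the U87 pair. It passed the mean FPKM of 1 through U251 Bru and was low elsewhere. CIART, a repressor of the circadian clock, was at 3.13 FPKM in U251 Control, 11.99 with Bru, and 2.79 and 2.98 in the U87 pair. Nearest to ARRDC4 were SPHK1 (0.375), TNFRSF9 (0.534), RAB3IL1 (0.547), NOV (0.576) and CGB8 (0.579). Each was also higher in U87 than in U251 and higher after Bru in U251, which follows from choosing them by this distance. SPHK1, which makes sphingosine 1-phosphate, was at 4.03, 14.1, 48.3 and 53.4 FPKM in the same order. CGB8 has near-identical paralogs and its reads are uncertain. In U251 Control, TNFRSF9 was at 0.0602 FPKM and CGB8 at 0.162 FPKM, so their ratios rest on very low levels. TXNIP and ARRDC4 were themselves 3.85 apart. Nearest to MYC were ZDHHC16 (0.0121), LDLRAD3 (0.0209), VPS13B (0.0298), HDAC6 (0.0356) and DCUN1D4 (0.0383), all with nearly flat profiles. With 4 libraries, such nearness is a description of the profiles.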

How the data were processed

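RNA of U251 and U87 cells, Control or after 48 h of Bru, was sequenced as 1 library per condition, 4 in all. The authors deposited FPKM per gene and the gene length. Per the submitters' processing notes, HISAT2 2.0.5, StringTie 1.3.3b, featureCounts 1.5.0-p3 and DESeq2 1.16.1 were used, and the notes name build hg18, whereas the coordinates of all 58735 genes equal those of GENCODE release 29 (GRCh38). Strand settings are not given in the sources used here.

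FPKM times gene length was a whole multiple of 1 step for 100% of values (tolerance 0.001 reads), which gave the reads and the library sizes inside the FPKM (17406238 to 20974002). These sizes differ from the sums of reads on genes, and scaling to those sums was not among the alternatives. PCR copies without molecular identifiers are not independent, so intervals cover counting error only. Ratios are log2 of FPKM + 0.1 over 12949 expressed genes (mean over the libraries at or above 1 FPKM), and intervals are exact Clopper-Pearson 95% intervals of the reads, without pseudocount. No p-value is given, as no condition has a replicate.

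Members and lists were chosen with earlier results of these data known. From each list, up to 4 genes past 2-fold with the largest mean absolute ratio were named, or the 2 largest where none passed. MLX and MGA stand for the other network proteins, and MYCN, MYCL and MLXIPL are given as reads. Profiles were compared by Euclidean distance, and genes overlapping a member were named where they bear on its reads. RefSeq promoters (GRCh38.p14) were searched for E-boxes on both strands. Alternatives were other pseudocounts, scalings, filters and fold cutoffs. Scripts (Python 3.11.15, numpy 2.4.6, pandas 2.3.3, scipy 1.17.1, matplotlib 3.10.9) were tested on simulated data.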

Additional observations from a re-analysis of the deposited data

Results flagged for a closer look

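For 6 of the 10 genes the log2 ratio of Bru to Control had opposite signs in U251 and U87. The share of all genes with opposite signs was not computed, so this count does not set the 10 genes apart. Over all genes, 47.2% were higher and 52.1% lower in U251, and 42.3% and 56.7% in U87. The difference between the lines was not tested, since each condition had 1 library. As U251 minus U87 without a pseudocount, this difference was 2.63 for TXNIP and 2.97 for ARRDC4, where the U87 ratio was near 0. It was 0.26 for MAX, -0.28 for MXD1, -0.39 for MNT and 0.092 for MLXIP. For each of the 6, the counting interval of the ratio in at least 1 of the lines held 0, so the opposite signs rest on values close to 0.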

How the results depend on the processing

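No paired analysis was possible because each group had 1 library and the labels carry no replicate numbers. Of 180 recomputed ratios of single members, 174 moved by less than their counting error, 6 moved and 0 reversed as a called value. A pseudocount of 1 gave -1.33 for MXD3, -0.77 for MXD4, 2.27 for TXNIP and 0.84 for ARRDC4 in U251, and 2.04 for ARRDC4 between the untreated lines, which follows from adding more to low values; rescaling to the 75th percentile gave -0.17 for MYC in U251. Under scaling and pseudocount choices, the small ratios of TXNIP (-0.06 to 0.00), MAX (-0.06 to 0.00) and MLXIP (-0.02 to 0.05) in U87 and of MXD1 (-0.02 to 0.07) in U251 passed through 0.

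Of 12949 genes, 1140 in U251 and 432 in U87 were past 2-fold. These counts were 616 and 190 with a pseudocount of 1, and 3471 and 1173 past 1.5-fold. Filters also change the number of genes counted. Without a filter the counts were 4963 and 4335 of 58735 genes. At a minimum mean FPKM of 0.1 they were 3727 and 2801 of 22194, and at a minimum of 5 they were 473 and 83 of 7578. Among protein-coding genes alone they were 700 and 96 of 10851. Members past 2-fold in U251 were 3, and 2 with a pseudocount of 1 or at the minimum of 5. Between the untreated lines, 2 members were past 2-fold, 1 at the minimum of 5 and 5 past 1.5-fold. The log2 ratio of MYC over the antagonist sum in U251 was 0.29, and it reversed to -0.11 without MXD3, an alternative chosen after seeing the data. Depth limits ARRDC4 most, at 12 reads in U251 Control.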
